A study of Mus musculus with 6 samples.

Results

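The 46 genes described here act in G2 phase and mitosis, the steps in which a cell checks its copied DNA, builds a spindle, separates its chromosomes and divides. They were taken by symbol from a list of 46 names, chosen with earlier results of these data known. All 46 were found among the 32061 gene rows of the count table. RNA was sequenced from isolated hepatocytes, the metabolic cells of the liver, in 3 senescent and 3 healthy samples. The senescent mice carried AhCre and Mdm2fl/fl, and the healthy mice were AhCre-, for which the sources used here state no Mdm2 genotype. In AhCre mice the Cre recombinase is made when the aryl hydrocarbon receptor is activated. Both groups, aged 10 to 12 weeks, had been injected with 20 mg/kg of an activator, β-naphthoflavone, in corn oil, 48 h earlier. Mdm2 is the ubiquitin ligase that keeps p53 low, so the comparison asks what differs after its deletion, but presence of Cre and loss of Mdm2 cannot be told apart. Whether every library comes from its own mouse is not stated, so the tests weigh differences against a spread between libraries that may be technical.

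Mitotic genes are silent in resting cells and are switched on together in late S phase and G2. Their promoters typically carry a cell cycle genes homology region (CHR) and CCAAT boxes. The MuvB complex binds the CHR: with pocket proteins and E2F4 it represses these genes (the DREAM complex), and with B-MYB and FOXM1 it activates them. When p53 is active, p21, the product of Cdkn1a, is known to shift MuvB to its repressing form. Adult hepatocytes divide rarely, and many are polyploid because they have passed through incomplete divisions.

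Promoter stretches of 10 members are printed because the letters that MuvB and NF-Y, the factor of CCAAT boxes, are known to recognise stand in most of this list. They include members with and without a CHR form, both among those that rose and among those that did not pass. Each runs 5′ to 3′ from 120 bases before to 30 bases from the annotated start, from RefSeq on GRCm38.p6. Capitals mark the CHR forms TTTGAA and TTTAAA and the CCAAT box, each read on both strands, so that TTCAAA and ATTGG are marked too. Ttk, Prc1, Cdc20, Ccnb1, Spc25, Cdk1 and Nek2 rose in the senescent libraries, and Cenpa, Cks2 and Pttg1 did not pass the test. Nek2, Cks2 and Pttg1 hold no CHR form. Cks2 has 4 CCAAT boxes, but the last, 32 bases from the start, lies beyond the end of the printed stretch.
Ttk, chr9:83834569-83834718, plus strand: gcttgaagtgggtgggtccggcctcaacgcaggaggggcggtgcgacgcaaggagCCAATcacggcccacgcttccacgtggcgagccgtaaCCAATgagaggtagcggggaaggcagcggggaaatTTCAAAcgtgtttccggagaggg
Prc1, chr7:80294331-80294480, plus strand: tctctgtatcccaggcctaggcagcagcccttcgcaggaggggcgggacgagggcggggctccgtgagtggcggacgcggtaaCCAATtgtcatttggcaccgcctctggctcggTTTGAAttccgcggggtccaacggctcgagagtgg
Cdc20, chr4:118437314-118437463, minus strand: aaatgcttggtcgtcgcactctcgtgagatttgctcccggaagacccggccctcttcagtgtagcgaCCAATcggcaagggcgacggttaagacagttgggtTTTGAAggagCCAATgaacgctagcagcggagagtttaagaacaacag
Ccnb1, chr13:100786457-100786606, minus strand: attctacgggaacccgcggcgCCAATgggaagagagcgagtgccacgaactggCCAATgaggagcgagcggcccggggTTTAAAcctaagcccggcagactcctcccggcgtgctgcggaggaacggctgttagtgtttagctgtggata
Spc25, chr2:69206184-69206333, minus strand: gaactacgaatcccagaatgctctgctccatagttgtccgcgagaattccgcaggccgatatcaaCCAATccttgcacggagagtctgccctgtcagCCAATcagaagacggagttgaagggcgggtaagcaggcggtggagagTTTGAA
Cdk1, chr10:69352883-69353032, minus strand: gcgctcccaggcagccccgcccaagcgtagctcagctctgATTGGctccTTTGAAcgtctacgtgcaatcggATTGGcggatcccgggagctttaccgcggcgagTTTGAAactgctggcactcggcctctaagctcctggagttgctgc
Nek2, chr1:191821353-191821502, plus strand: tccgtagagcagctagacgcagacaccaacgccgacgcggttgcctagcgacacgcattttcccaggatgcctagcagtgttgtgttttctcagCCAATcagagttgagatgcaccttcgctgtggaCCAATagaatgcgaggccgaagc
Cenpa, chr5:30666766-30666915, plus strand: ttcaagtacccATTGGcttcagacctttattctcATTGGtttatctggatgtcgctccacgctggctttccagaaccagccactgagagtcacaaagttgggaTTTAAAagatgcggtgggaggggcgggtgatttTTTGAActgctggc
Cks2, chr13:51645112-51645261, plus strand: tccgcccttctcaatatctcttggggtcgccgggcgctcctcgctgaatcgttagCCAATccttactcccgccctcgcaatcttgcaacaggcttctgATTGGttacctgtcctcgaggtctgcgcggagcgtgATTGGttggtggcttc
Pttg1, chr11:43425952-43426101, minus strand: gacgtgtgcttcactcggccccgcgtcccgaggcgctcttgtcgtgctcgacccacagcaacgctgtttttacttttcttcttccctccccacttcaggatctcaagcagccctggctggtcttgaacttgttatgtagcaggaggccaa

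RefSeq windows from 250 bases before to 50 after the start were found for 37 members, with 39 windows in all, since Ect2 and Prc1 have a pair each. A CHR form stood in 31 of the 39 windows (79.5%), against 20.1% of the windows of all tested genes and 27.6% of all windows. A CCAAT box stood in 79.5% of the members' windows, against 38.2% for tested genes and 37.4% for all windows. Both stood together in 69.2% of the members' windows, against 7.92% for tested genes and 10.7% for all windows. Over the 39 windows the CHR forms had 45 matches, with a median position of -5. Of these matches 33 lay from 50 bases before to 50 after the start. Sites shared by the overlapping windows of Ect2 and of Prc1 were counted in each window. S phase genes, listed for comparison, had a CHR form in 22.0% of 41 windows and a CCAAT box in 61.0%. By gene, 26 of 30 risen members with a window held a CHR form, and Mad2l1, Ncaph, Nek2 and Nusap1 did not. Of the 6 members that did not pass, Cenpa, Ect2 and Ndc80 held one in their windows and Cdc25b, Cks2 and Pttg1 did not. A match is only a run of letters and says nothing about binding in these cells. No window was found for Aurkb, Ccna2, Cdc25c, Cdca2, Dlgap5, Foxm1, Incenp, Kif20a and Tpx2.

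**Figure D1:**
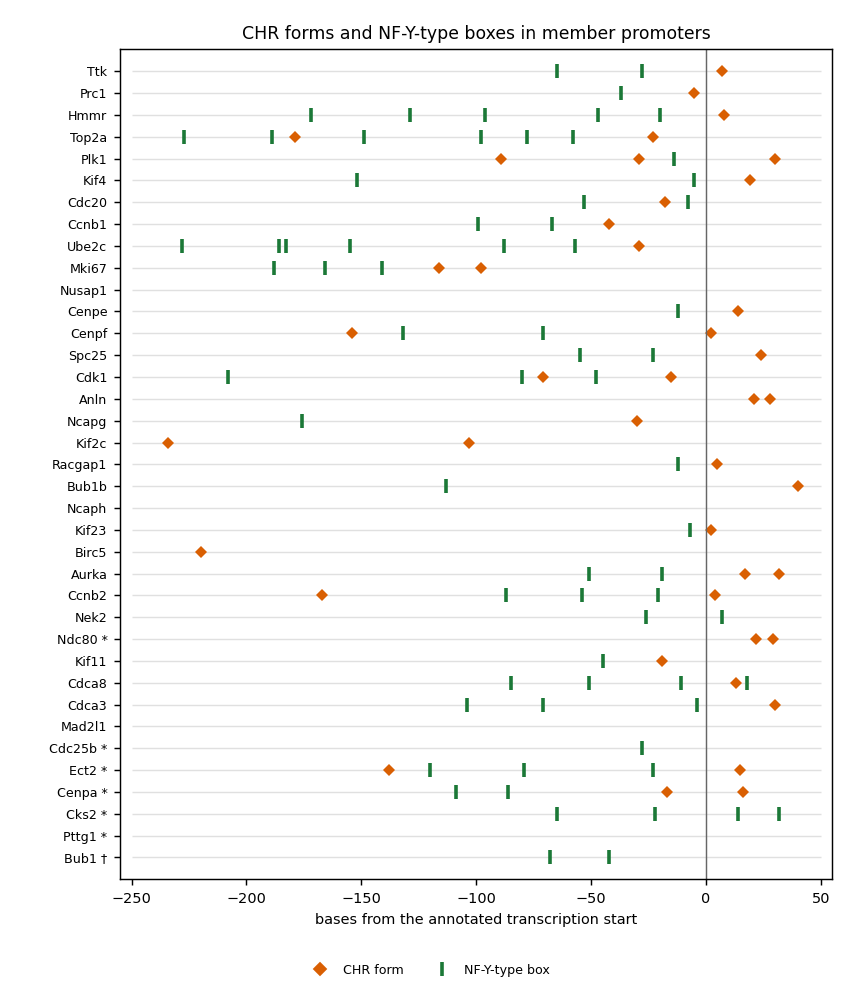
Positions of CHR forms (diamonds) and NF-Y-type CCAAT boxes (bars) in 1 promoter window of each of 37 members, in bases from the annotated start, with the largest rise at the top; an asterisk marks members that did not pass the test and a dagger the member that was not tested. CHR forms gather near the start in most rows, and 8 rows hold none: Nusap1, Ncaph, Nek2 and Mad2l1, which rose, Cdc25b, Cks2 and Pttg1, which did not pass, and Bub1, which was not tested.

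Senescent libraries held 29992707 to 32210591 counts and healthy libraries 28799392 to 33267299, and a count of 0 allows up to 3 counts, or 0.0837 to 0.117 CPM. CPM, for counts scaled to a common depth of 1e6, are counts over library sizes scaled by TMM, a trimmed mean that offsets a few dominant genes, and log2 fold changes are senescent over healthy ± SE from edgeR's quasi-likelihood test, two-sided, with Benjamini-Hochberg adjustment over 12949 tested genes and calls under 0.05. Mdm2 itself lay between 463 and 501 CPM in senescent libraries and between 19.03 and 22.7 CPM in healthy libraries. The count covers the whole gene and Mdm2 is a p53 target, so it does not check the deletion. The hepatocyte markers summed to 85328 to 98920 CPM in senescent and 143034 to 158744 CPM in healthy libraries, so both groups hold the labelled cell type. Of these 12 markers 7 were lower, Ttr and Cyp2e1 at the smallest p, where 20.7% of tested genes fell. In bulk RNA, fewer cells of a type and less RNA per cell cannot be told apart.

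The mitotic genes were low in both groups and higher in the senescent libraries. In bulk RNA the cells that hold these transcripts were not identified. Their median level was 2.07 CPM in senescent and 0.353 CPM in healthy libraries, where the tested genes had medians of 13.8 CPM and 13.2 CPM. Mean CPM was higher in the senescent libraries for 44 of the 46 genes. All 3 senescent values lay above all 3 healthy values for 39 members, where 26.8% of tested genes and 21.6% of genes with any count did so, and below them for 1, Pttg1, where 27.2% of tested genes did so. In edgeR's test 37 members rose, 0 fell and 7 did not pass, and Bub1 and Cdc25c had too few counts to be tested. Over all tested genes 20.4% rose and 20.7% fell. Among the 6898 tested genes between the lowest and the highest mean CPM of the tested members 20.5% rose. That range is wide, so these genes are not matched to the members in abundance. A rise of at least 4-fold was found for 27 members (4.22% of tested genes) and of at least 8-fold for 15 (2.15%). The median log2 fold change of the 44 tested members was 2.45, beside 0.01 for all tested genes.

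A low gene can pass the count filter through its senescent libraries alone, so these counts favour rises. In healthy libraries 37 of the 46 members averaged under 1 CPM and 16 stayed under 10 counts in every library. Another 16 had at least 10 counts in all 3 healthy libraries, and of these 12 rose and 4 did not pass. With no filter on low counts 39 members rose, Bub1 and Cdc25c among them (14.9% of genes in that fit). Leaving out 1 library at a time, 27 of the 37 rises were called in all 6 fits. The count fell to 27 rises without senescent replicate 3, where 1836 of 13105 tested genes rose. It was 40 without healthy replicate 1, where 2464 of 13220 tested genes rose. In the main fit 2644 of 12949 did so.

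**Figure D2:**
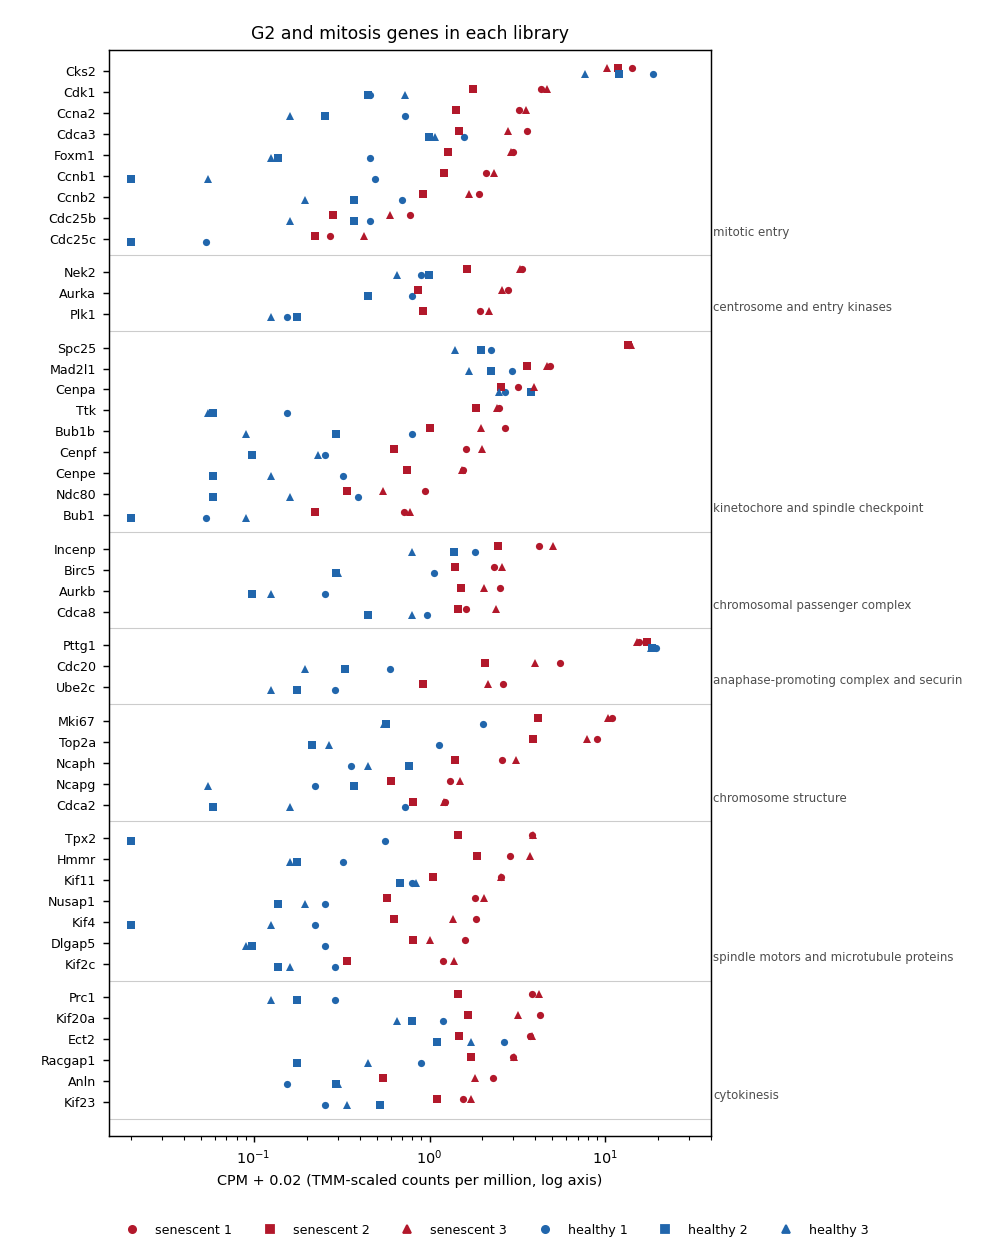
CPM of each of the 46 genes in each library, on a log axis after adding 0.02, grouped by role, with senescent libraries in red above healthy libraries in blue and a symbol for each replicate. Most genes have 3 red points to the right of 3 blue points, in Cks2, Pttg1 and Cenpa both colours lie close together, and the red squares of senescent replicate 2 lie left of the other red points in most rows.

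Mitotic entry is driven by CDK1 with cyclins A2, B1 and B2. Cdk1 had 153, 60 and 160 read counts in senescent replicates 1, 2 and 3, against 13, 11 and 20 in the healthy ones, and rose 6.72-fold (log2 fold change 2.75 ± 0.44, edgeR adjusted p = 0.0017). The groups do not overlap, and senescent replicate 2 is the lowest of its group. Ccna2, Ccnb1 and Ccnb2, the cyclin genes, rose with log2 fold changes of 2.88 ± 0.58, 3.37 ± 0.80 and 1.87 ± 0.49 (edgeR adjusted p = 0.0052, 0.011 and 0.017). The Ccnb2 call was lost when senescent replicate 3 or healthy replicate 2 was left out. Ccnb1 had 14, 0 and 1 counts in the healthy libraries, so that a single library holds nearly all of them. Foxm1, the forkhead factor that activates G2 genes, had 106, 43 and 100 counts in senescent libraries, against 13, 3 and 3 counts in healthy ones. It rose 10.4-fold (log2 fold change 3.38 ± 0.58, edgeR adjusted p = 0.0024), with no overlap between groups. Cdca3, which helps to trigger entry by the removal of WEE1, rose 2.16-fold although its groups overlap (edgeR adjusted p = 0.041), and it lost this call in limma-voom and in 4 of the 6 fits that left out 1 library.

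Of the other 3 members of this group, Cks2 and Cdc25b did not pass. Cdc25c, whose groups do not overlap, had too few counts to be tested. Cks2, which encodes a small CDK-binding subunit, had 510, 402 and 354 counts in senescent and 555, 305 and 216 counts in healthy libraries. Its groups overlap, and its log2 fold change of -0.08 ± 0.29 did not pass (edgeR adjusted p = 0.85) and turned to 0.23 when total library size replaced TMM. Cdc25b, one of the phosphatase genes that activate CDK1, had 27, 9 and 20 counts in senescent and 13, 9 and 4 in healthy libraries, which also overlap (log2 fold change 0.77 ± 0.54, edgeR adjusted p = 0.28). Cdc25c, its relative, had 9, 7 and 14 counts against 1, 0 and 0 in healthy libraries, a ratio of the group sums of 24.0 with a 95% counting interval of 3.99 to 978. Reads copied by PCR are not independent molecules, and these intervals and floors therefore hold only the error of counting.

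The 3 kinase genes of the centrosome and of mitotic entry all rose, where 20.4% of tested genes did so. None overlapped between groups, and 26.8% of tested genes likewise lay wholly above the healthy values. Plk1, the polo kinase that acts from entry to cytokinesis, had 69, 31 and 75 counts in senescent libraries, against 4, 4 and 3 in healthy ones. It rose 12.3-fold (log2 fold change 3.62 ± 0.48, edgeR adjusted p = 0.00075). Nek2, a kinase of centrosome separation, had 119, 55 and 112 counts in senescent and 26, 25 and 18 counts in healthy libraries, a rise of 3.28-fold (edgeR adjusted p = 0.0059). Aurka, which matures the spindle poles, rose with a log2 fold change of 1.91 ± 0.50 (edgeR adjusted p = 0.016), a call lost when senescent replicate 3 or healthy replicate 2 was left out.

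The kinetochore joins chromosomes to the spindle, and its checkpoint holds anaphase back until all are attached. Of 9 such genes 6 rose, where 20.4% of tested genes did so, Ndc80 and Cenpa did not pass and Bub1 was not tested. Ttk, the checkpoint kinase MPS1, had 88, 62 and 83 counts in senescent libraries, against 4, 1 and 1 in healthy ones. This was the largest rise among the tested members, 29.5-fold (log2 fold change 4.88 ± 0.47, edgeR adjusted p = 0.00013). Bub1, another checkpoint kinase gene, had 25, 7 and 26 counts in senescent and 1, 0 and 2 counts in healthy libraries, a ratio of 15.4 (95% counting interval 5.03 to 77.1). Bub1b and Mad2l1, whose products bind and hold CDC20, rose with log2 fold changes of 2.30 ± 0.66 and 0.93 ± 0.25 (edgeR adjusted p = 0.024 and 0.019), but each call was lost when single libraries were left out. The kinetochore motor gene Cenpe and its partner Cenpf rose with log2 fold changes of 3.00 ± 0.60 and 2.94 ± 0.57 (edgeR adjusted p = 0.0049 and 0.0046). Cenpa, the histone H3 variant that marks centromeres, had 114, 87 and 135 counts in senescent and 79, 96 and 70 counts in healthy libraries. Those groups overlap, and its log2 fold change of 0.12 ± 0.25 did not pass (edgeR adjusted p = 0.73).

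SPC25 forms the microtubule-binding NDC80 complex with SPC24, NUF2 and NDC80. Spc25 had 486, 461 and 480 counts in senescent libraries, against 66, 50 and 39 in healthy ones, and rose 7.35-fold with the smallest p among the members (log2 fold change 2.88 ± 0.19, edgeR adjusted p = 1.8e-05). Its 3 senescent values are nearly equal. Ndc80 had 33, 11 and 18 counts in senescent and 11, 1 and 4 in healthy libraries, so its groups overlap (log2 fold change 1.62 ± 0.67, edgeR adjusted p = 0.085). It was called under total library size (edgeR adjusted p = 0.043) and when healthy replicate 1 was left out (edgeR adjusted p = 0.032). Nuf2, from the list of other mitosis genes, rose (log2 fold change 4.23 ± 0.76, edgeR adjusted p = 0.0031), and Spc24 was lower, with a log2 fold change of -0.87 ± 0.30 (edgeR adjusted p = 0.046). That fall was lost in 7 of 14 other fits, among them total library size (-0.55). Per kilobase of exonic length, Spc25 was at 4.28 ± 0.0745 RPKM (CPM per kilobase; SD, n = 3) in senescent and 0.580 ± 0.135 RPKM in healthy libraries. Spc24 was at 2.12 ± 0.522 RPKM in senescent and 3.86 ± 1.48 RPKM in healthy libraries. Nuf2 was at 0.257 ± 0.121 RPKM in senescent and 0.0127 ± 0.0169 RPKM in healthy libraries, and Ndc80 at 0.0905 ± 0.0470 RPKM in senescent and 0.0283 ± 0.0262 RPKM in healthy libraries.

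The chromosomal passenger complex corrects faulty attachments and moves to the midzone for cytokinesis. All 4 of its genes rose, where 20.4% of tested genes did so. Aurkb, its kinase, had 90, 51 and 70 counts in senescent libraries, against 7, 2 and 3 in healthy ones, a 13.7-fold rise (log2 fold change 3.78 ± 0.45, edgeR adjusted p = 0.0004). Incenp, the scaffold, had 149, 83 and 173 counts in senescent and 53, 35 and 22 counts in healthy libraries (log2 fold change 1.56 ± 0.37, edgeR adjusted p = 0.011). Neither gene's groups overlap. Birc5, the gene of survivin, and Cdca8, the gene of borealin, rose with log2 fold changes of 1.93 ± 0.52 and 1.31 ± 0.37 (edgeR adjusted p = 0.019 and 0.021), and both calls were lost without senescent replicate 3 or healthy replicate 2.

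Anaphase starts when the anaphase-promoting complex, switched on by CDC20 and served by the ubiquitin-conjugating enzyme UBE2C, destroys securin. Cdc20 had 198, 70 and 136 counts in senescent libraries, against 17, 8 and 5 in healthy ones, and rose 10.7-fold (log2 fold change 3.41 ± 0.50, edgeR adjusted p = 0.0012). Ube2c rose with a log2 fold change of 3.37 ± 0.54 (edgeR adjusted p = 0.0018). Pttg1, the gene of securin, did not follow them. It had 557, 588 and 519 counts in senescent and 571, 475 and 513 counts in healthy libraries, and its log2 fold change of -0.23 ± 0.11 did not pass (edgeR adjusted p = 0.13) and turned to 0.08 with total library size.

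Chromosome structure genes include the topoisomerase that untangles DNA and the condensin I subunits. Top2a had 322, 132 and 272 counts in senescent libraries, against 33, 5 and 7 in healthy ones, and rose 13.0-fold (log2 fold change 3.69 ± 0.59, edgeR adjusted p = 0.0017). Mki67, the gene of the proliferation marker Ki-67 that coats mitotic chromosomes, had 390, 142 and 355 counts in senescent and 59, 14 and 15 counts in healthy libraries. It rose 8.12-fold (log2 fold change 3.02 ± 0.55, edgeR adjusted p = 0.0034). Both show the same order, with senescent replicate 2 lowest and healthy replicate 1 highest in its group, and neither overlaps. The condensin genes Ncapg and Ncaph rose with log2 fold changes of 2.51 ± 0.62 and 2.23 ± 0.42 (edgeR adjusted p = 0.013 and 0.004), and Ncapg lost its call without senescent replicate 3. Cdca2, which recruits a phosphatase to chromatin, had 43, 27 and 41 counts in senescent and 21, 1 and 4 counts in healthy libraries. Its groups do not overlap, its log2 fold change of 1.78 ± 0.69 did not pass (edgeR adjusted p = 0.069), and without healthy replicate 1 it was 3.46 and passed (edgeR adjusted p = 0.0039). DESeq2, limma-voom and edgeR with total library size also called it.

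All 7 genes of spindle motors and microtubule proteins rose, with a median log2 fold change of 3.05, and none overlapped between groups. Over all tested genes 20.4% rose and 26.8% lay wholly above the healthy values. Tpx2, which activates Aurora A on the spindle, had 136, 49 and 133 counts in senescent libraries, against 16, 0 and 0 in healthy ones (log2 fold change 3.98 ± 0.92, edgeR adjusted p = 0.0098). Its healthy reads come from replicate 1 alone, and DESeq2 did not call it (adjusted p = 0.083). Hmmr, whose product binds spindle poles, Kif4, a chromosome-bound kinesin, Dlgap5 and Nusap1, both of spindle microtubules, rose with log2 fold changes of 3.76, 3.51, 3.05 and 3.00. Kif2c, a kinesin that takes microtubules apart, and Kif11, the motor that pushes spindle poles apart, rose with 2.39 and 1.43. The edgeR adjusted p of these 6 genes ran from 0.00033 for Hmmr to 0.02 for Kif11. Kif11 lost its call in limma-voom and in 3 of the 6 fits that left out 1 library, and Kif2c in 2 of the 6.

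Cytokinesis genes rose in 5 of 6 cases, where 20.4% of tested genes rose. Prc1, which bundles the microtubules of the midzone, had 136, 49 and 145 counts in senescent libraries, against 8, 4 and 3 in healthy ones, a 17.2-fold rise (log2 fold change 4.11 ± 0.55, edgeR adjusted p = 0.00074). Kif20a and Kif23, motors of the midzone, Racgap1, the partner of the KIF23 protein, and Anln, which scaffolds the contractile ring, rose with log2 fold changes of 1.80, 2.03, 2.36 and 2.73 (edgeR adjusted p at most 0.0088). Ect2, the exchange factor that activates RhoA, had 133, 50 and 131 counts in senescent and 78, 28 and 48 counts in healthy libraries, which overlap. Its log2 fold change of 0.72 ± 0.43 did not pass (edgeR adjusted p = 0.21), and without senescent replicate 2 it was 1.09 and passed (edgeR adjusted p = 0.049).

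**Figure D3:**
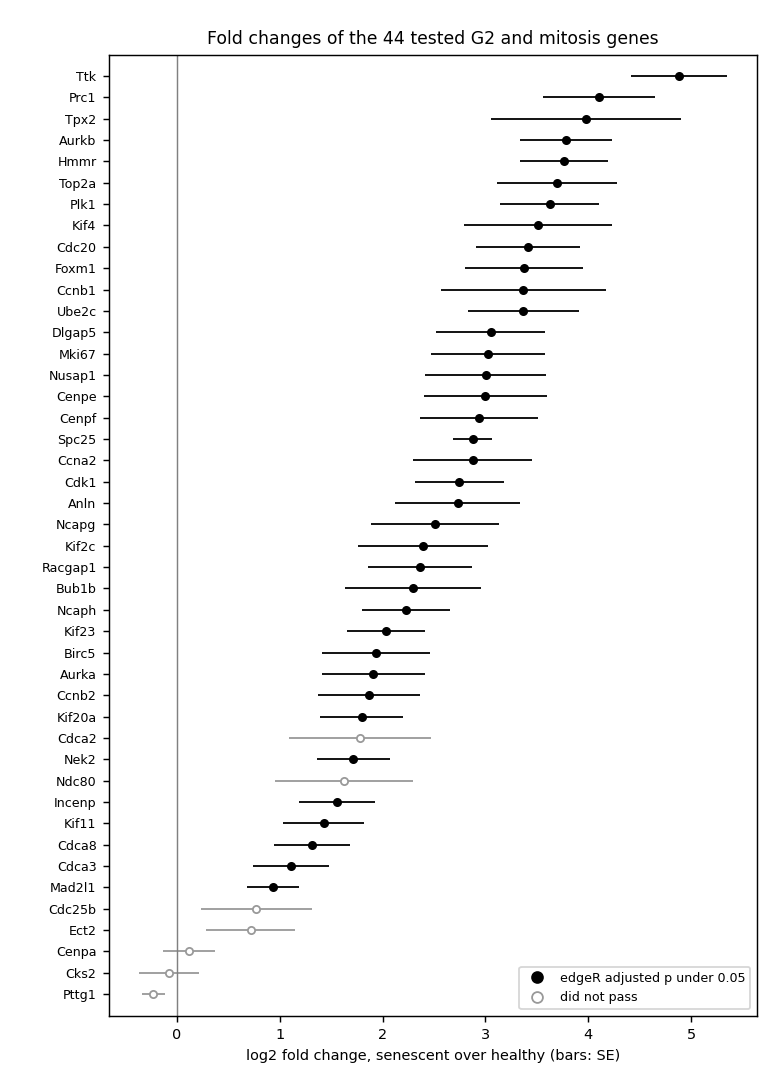
Log2 fold change of each of the 44 tested genes, senescent over healthy, with SE bars, sorted by size; filled points passed edgeR's test and open points did not. The 7 open points are Pttg1, Cks2, Cenpa, Ect2, Cdc25b, Ndc80 and Cdca2, and the top point is Ttk at 4.88.

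Cks2 and Pttg1 set the scale of the list. Together they held 19.8% of its summed CPM in senescent and 56.5% in healthy libraries. All 46 genes summed to 141 ± 36.4 CPM in senescent and 55.5 ± 14.1 CPM in healthy libraries (SD, n = 3 each), a ratio of 2.55. Without Cks2 and Pttg1, left out after their values were seen, the sums were 136, 70.7 and 134 CPM in senescent replicates 1, 2 and 3 and 33.3, 20.9 and 18.2 CPM in the healthy ones, a ratio of 4.70. Only Cks2 and Pttg1 had means that were not higher in senescent libraries, so leaving them out had to raise the ratio. Per kilobase, Cks2 at 17.4 ± 2.91 RPKM in senescent and 18.4 ± 8.06 RPKM in healthy libraries was the highest member in both groups. Pttg1 followed with 7.95 ± 0.551 RPKM in senescent and 9.31 ± 0.281 RPKM in healthy libraries, then Spc25. Cdc20 came next in senescent libraries, at 2.05 ± 0.934 RPKM, and had 0.189 ± 0.108 RPKM in healthy ones, where it ranked 12. Every other member lay under 1 RPKM in senescent libraries. Ccnb2 at 0.969 ± 0.338 RPKM, Cdca3 at 0.905 ± 0.368 RPKM and Incenp at 0.892 ± 0.305 RPKM, the next in order, differed by less than their SDs.

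The senescent libraries differed among themselves in the mitotic genes more than in most others. Senescent replicate 2 was the lowest of its group for 44 of the 46 members. Its CPM over the mean of replicates 1 and 3 had a median of 0.451 over the members and 0.999 over all tested genes. That ratio was under 0.5 for 28 members (60.9%) and for 2.59% of tested genes. The members had a median of 2.07 CPM in senescent libraries and tested genes 13.8 CPM, so counting error weighs more on the members. Genes of like abundance were not compared. It ran from 0.253 for Kif2c to 1.12 for Pttg1, and Cks2 at 0.957 and Spc25 at 0.979 were also near 1. Among healthy libraries, replicate 1 was the highest for 36 members. The 52 tested genes of a list of other G2 and mitosis genes had a median ratio of 0.687, with 23.1% under 0.5, and tested S phase genes a median of 0.831, with 6.98% under 0.5. With senescent replicate 2 and healthy replicate 1 both left out, a choice made after the values were seen, 41 members rose and the median log2 fold change was 3.25. Leaving out the lowest senescent and the highest healthy library of most members raises these values by the choice itself. Calls over all genes were not counted in that fit.

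**Figure D4:**
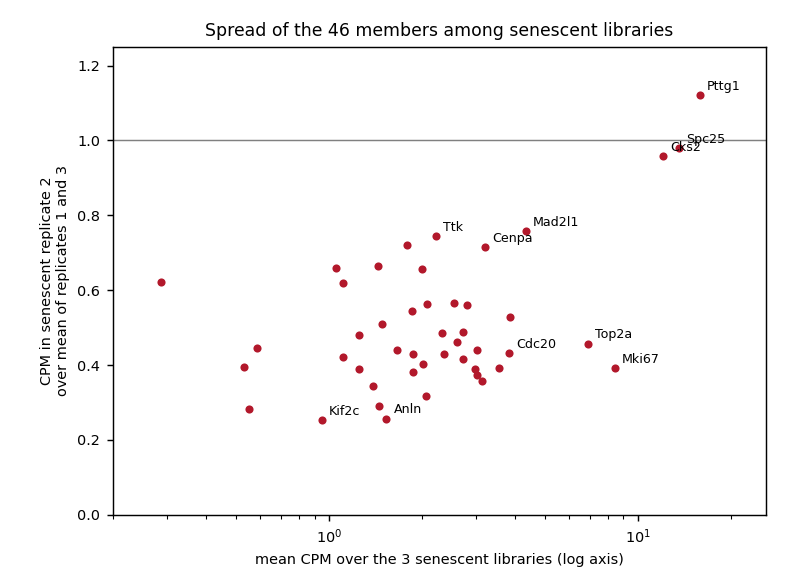
For each of the 46 genes, CPM in senescent replicate 2 over the mean of senescent replicates 1 and 3, against the gene's mean CPM over the 3 libraries on a log axis; the line marks equal levels. Most genes lie between 0.253 and 0.76, and Cks2, Spc25 and Pttg1 lie near 1 at the right.

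Markers of other liver cells were measured in the same libraries, where 20.4% of all tested genes rose and 20.7% fell. The 22 macrophage markers summed to 513, 370 and 665 CPM in senescent libraries, in replicate order, and to 339, 362 and 164 CPM in healthy libraries. Of 21 tested, 6 rose, with Cd163 and Mpeg1 at the smallest p, and 0 fell. None of the 22 was at 0 in every library. The 16 stellate cell markers summed to 47.8, 46.98 and 67.0 CPM in senescent and 22.3, 28.7 and 17.5 CPM in healthy libraries. Among the 15 tested, 10 rose, Reln and Pdgfra first. Of 14 endothelial markers 2 rose, Cdh5 and Stab1, and Ehd3 fell, where the Ehd3 call was lost in limma-voom, under total library size and in 5 of 6 fits that left out 1 library, and the Stab1 call in 4 of 6. The endothelial sums were 188 to 244 CPM in senescent and 167 to 239 CPM in healthy libraries. The 10 neutrophil markers summed to 3.15 to 4.60 CPM in senescent and 0.742 to 1.52 CPM in healthy libraries. Only 3 were tested, S100a9, S100a8 and Csf3r, and all 3 rose. No lymphocyte marker had enough counts to be tested, and their sums were 1.05 to 2.14 CPM in senescent and 0.460 to 2.16 CPM in healthy libraries. Of 9 cholangiocyte markers 6 were tested, and of these 2 rose, Spp1 and Krt19, and 1 fell. The 9 markers summed to 20.7 to 27.5 CPM in senescent and 15.6 to 24.3 CPM in healthy libraries. Of 11 erythroid markers 6 were tested and Klf1 fell, and Epb42 was at 0 in every library. The 11 markers summed to 12.6 to 19.9 CPM in senescent and 13.3 to 15.8 CPM in healthy libraries. Senescent replicate 2 had the highest hepatocyte sum of its group and the lowest sum of its group for each list of other cells, as it had for the mitotic genes, whereas healthy replicate 1 had the highest sum of its group for the lymphocyte, neutrophil and cholangiocyte lists only. The part of these cells in the mitotic counts was not tested.

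**Figure D5:**
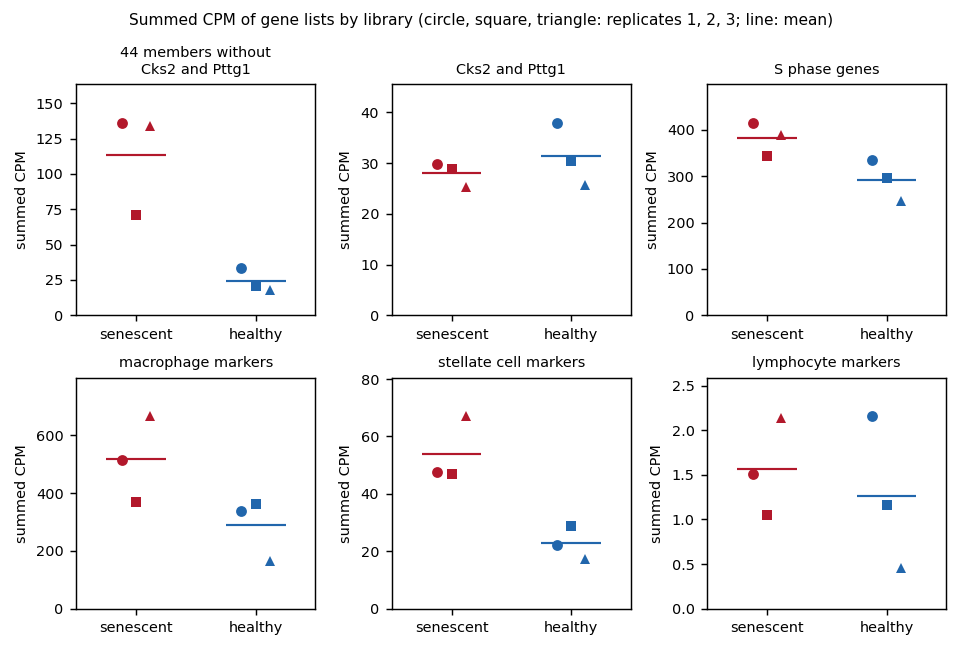
Summed CPM of 6 gene lists in each library, senescent left of healthy, with a symbol for each replicate and a line at the mean. The 44 members without Cks2 and Pttg1 lie at 70.7 to 136 CPM in senescent and 18.2 to 33.3 CPM in healthy libraries, while the sums of Cks2 and Pttg1 overlap between groups.

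The rest of the mitotic programme was read from a list of 70 other G2 and mitosis genes. Of 52 tested, 32 rose and 2 fell, Cenpl and Spc24, with a median log2 fold change of 1.42. Over all tested genes 20.4% rose and 20.7% fell. Of the 70, 49 lay wholly above the healthy values, where 21.6% of genes with any count did so. The smallest p belonged to Gtse1 and Psrc1, a pair of microtubule-associated genes that are known p53 targets. Gtse1 was at 121, 146 and 161 CPM in senescent libraries, against 0.404, 0.506 and 0.318 CPM in healthy ones (log2 fold change 8.44 ± 0.21, edgeR adjusted p = 2.7e-07). Psrc1 had 5481 counts in the senescent libraries together and 3 in the healthy ones, a ratio of 1460.0 (95% counting interval 499 to 7082). In both genes senescent replicate 1 was the lowest of its group, not replicate 2. Cenpl, a subunit of the centromere-bound network, had a log2 fold change of -0.70 ± 0.18 (edgeR adjusted p = 0.016), a call lost under total library size (-0.39) and when senescent replicate 2 or 3 or healthy replicate 2 was left out.

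S phase genes were less uniform. Of 43 tested, 15 rose, 3 fell and 25 did not pass, with a median log2 fold change of 0.50. Over all tested genes 20.4% rose and 20.7% fell. Of the 45, 24 lay wholly above the healthy values and 5 wholly below, where 26.8% and 27.2% of tested genes did so. Rrm2, a ribonucleotide reductase subunit gene, and Mcm7, of the replicative helicase, rose with log2 fold changes of 3.04 ± 0.27 and 1.21 ± 0.16 (edgeR adjusted p = 9.3e-05 and 0.00075). Mcm10, which helps to start replication forks, was at 4.26 ± 1.10 CPM in senescent and 14.1 ± 2.98 CPM in healthy libraries (log2 fold change -1.72 ± 0.23, edgeR adjusted p = 0.00079). Under total library size 29 S phase genes rose, as did 4861 of 12949 tested genes. Whether the S phase and mitotic lists differ was not tested.

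Calls among the regulators were about as frequent as over all tested genes, of which 20.4% rose and 20.7% fell. Among 18 tested genes of MuvB, the MYB and E2F factors and the pocket proteins, 4 rose and 3 fell, among them E2f8, a repressor of E2F targets. Mybl1, the gene of A-MYB, was at 68.9, 75.3 and 116 CPM in senescent libraries, against 0.303, 0.195 and 0.141 CPM in healthy ones (log2 fold change 8.63 ± 0.34, edgeR adjusted p = 1.1e-06). Mybl2, the gene of B-MYB, the family member named above, had 12, 25 and 23 counts in senescent and 9, 7 and 1 counts in healthy libraries and did not pass (log2 fold change 1.48 ± 0.61, edgeR adjusted p = 0.085). It was named after its values were seen. Rb1, the retinoblastoma gene, rose 6.09-fold (log2 fold change 2.61 ± 0.18, edgeR adjusted p = 2.6e-05). Rbl2, the gene of the pocket protein p130 in DREAM, and Rbbp4, a MuvB subunit, fell with log2 fold changes of -0.55 ± 0.13 and -0.49 ± 0.11 (edgeR adjusted p = 0.01 and 0.0078). Neither fall was called with total library size (-0.24 and -0.18). Without senescent replicate 3 none of the 3 falls, that of E2f8 included, was called.

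Of 10 genes that brake mitotic entry, 4 rose, 0 fell and 6 did not pass, where 20.4% of tested genes rose and 20.7% fell. Cdkn1a was at 653, 773 and 724 CPM in senescent libraries, against 21.3, 31.1 and 54.3 CPM in healthy ones (log2 fold change 4.33 ± 0.34, edgeR adjusted p = 4.4e-05). Rprm, a p53-induced inhibitor of CDK1 activation, had 61, 95 and 133 counts in senescent and 0 in every healthy library, which is at least 77.0-fold higher when the healthy group as a whole is set to 3 counts. Gadd45a, whose product hinders CDK1, and Sfn, the gene of 14-3-3 sigma that holds CDK1 in the cytoplasm, also rose. The sums of these 10 genes were 728, 843 and 791 CPM in senescent and 53.9, 167 and 109 CPM in healthy libraries, most of it from Cdkn1a in the senescent libraries.

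The annotation sets some limits. Exons of 15 members overlap those of another gene, most on the opposite strand, up to 29.3% of the exonic length in Kif20a and 22.8% in Ube2c, and the sources used here do not state whether counting used the strand. Ccnb1, Ccnb2 and Kif4 have annotated pseudogene copies that could share reads with them.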

How the data were processed

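RNA of isolated hepatocytes was sequenced in 6 samples, grouped by their titles. The authors deposited raw read counts per gene. Reads were handled with STAR 2.7.1a, cutadapt 1.16 and featureCounts on GRCm38, and FastQC, MultiQC 1.3 and DESeq2 1.34.0 are also named, all per the submitters' processing notes. Annotation release and strand setting: not given in the sources used here. Per the labels' protocols, libraries were poly(A)-selected and strand-specific. Columns were matched to samples by their codes, exactly for 5 of 6, and the column of healthy replicate 2 differs from its label in a single letter. Rows without a gene name: 0. Symbols were found for 31976 IDs (99.7%). Positions and exonic lengths are from GENCODE M21 on GRCm38.

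The test was edgeR 4.0.16 (R 4.3.3) on genes kept by filterByExpr (at least 10 counts, total of at least 15), scaled by TMM, without covariates. RPKM divide CPM by kilobases of exonic length. Counting intervals are exact. The fits were tested on simulated data. An exact permutation test of 3 against 3 samples cannot go below p = 0.1. Members and lists were chosen with earlier results of these data known. Members printed sample by sample were, in each role, the most abundant, the one with the largest change and those that did not pass or were not tested. From other lists the 2 called genes with the smallest p in each direction are named, and Cdk1 among the members, Nuf2, Mybl2, E2f8, Gadd45a, Sfn and Csf3r were added after their values were seen. Some genes that this rule selects are not reported here. Alternatives were DESeq2 1.42.0, limma-voom (limma 3.58.1), other scalings and filters, a stricter threshold, a replicate block and each library left out.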

Additional observations from a re-analysis of the deposited data

How the results depend on the processing

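The rises of the mitotic genes ran from 27 to 40 members over the fits that left out 1 library, and 0 members fell in any fit. Over all tested genes, 1836 to 2691 rose in the fits that left out 1 library. Rises were 37 with DESeq2, 36 with limma-voom, 39 with total library size and 27 with a filter at a mean of 1 CPM, which tested 31 members. Over all tested genes these settings called, in the same order, 2751, 2648, 4861 and 2451 higher, against 2644 in the main fit. The log2 fold change of Cks2 was -0.08 and became 0.23 with total library size, and it ranged from -0.35 to 0.30 when 1 library was left out. That of Pttg1 was -0.23 and became 0.081 with total library size. That of Cenpa was 0.12 and ranged from -0.0049 to 0.31 when 1 library was left out. None of these passed, and the cause was not tested.

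Over all tested genes, total library size gave a median log2 fold change of 0.33, with 4861 genes higher and 1285 lower, against 2644 and 2680 with TMM. With it 0 other mitosis genes, 1 gene of the MuvB, E2F and pocket list and 1 other-cell marker fell, 29 S phase genes and 41 other-cell markers rose, and 0 members lay wholly below the healthy values. At an adjusted p under 0.01 (a stricter threshold, so fewer calls) 25 of the 37 members stayed called, 1570 genes were higher and 1498 lower, 9 S phase genes and 9 other-cell markers rose, and 0 other mitosis genes, 1 MuvB-list gene and 1 other-cell marker fell. With the filter at a mean of 1 CPM, 18 other mitosis genes rose and 1 fell, and 15 other-cell markers rose, since fewer were tested. With limma-voom 1 other mitosis gene fell. The summed ratio without Cks2 and Pttg1 was 4.70 against 2.55. Over the fits that left out 1 library, 1489 to 2789 genes were lower, 0 to 3 other mitosis genes, 0 to 3 MuvB-list genes, 0 to 1 entry brakes and 1 to 3 other-cell markers fell, and 12 to 29 other-cell markers rose.

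With the replicate number as a block 39 members rose, Cdca2 and Ndc80 among them, 2576 genes were higher and 2625 lower. The numbers only name samples: deviations of same-numbered samples correlated at 0.250, -0.205 and 0.0246. Depth limits the members under 10 counts, most of them in healthy libraries.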
